A study of Homo sapiens with 6 samples.

Results

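Hepatoma-derived growth factor (HDGF) and 3 of its PWWP relatives, HDGFL2, HDGFL3 and PSIP1, were followed in 3 human bladder cancer (BC) cell lines treated with the HDAC inhibitor quisinostat. The 4 genes were chosen by name, all 4 were present, each as a locus carrying no other gene name, and the table held 10066 assembled loci in all. RT4, RT112 and SW780 cells were treated for 2 days with DMSO or with quisinostat, at 50 nM for RT4, 10 nM for RT112 and 25 nM for SW780. Each cell line had 1 DMSO library and 1 quisinostat library, giving 6 libraries without replicates, and dose and cell line cannot be told apart. Per the labels, RT4 and RT112 cells carry an FGFR3-TACC3 fusion and SW780 cells a fusion that the study spells FGFR3-BAIBP2L1. All 6 libraries thus come from BC cells with an FGFR3 fusion and none from a line without. The study singled out HDGF among the genes that were lower with quisinostat in all 3 lines. It also reported lower HDGF mRNA by RT-qPCR and lower HDGF protein by western blotting, both with biological replicates. The question here was whether the lower level of HDGF was shared by its relatives.

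The PWWP domain is a small chromatin-reading fold named after a proline-tryptophan-tryptophan-proline motif, and in many proteins it binds nucleosomes carrying methylated H3K36, a mark of transcribed genes. HDGF is a heparin-binding protein that is secreted as a mitogen and also found in the nucleus. HDGFL2 and PSIP1 (also known as LEDGF) add an integrase-binding domain and help RNA polymerase II to pass nucleosomes in transcribed genes, while HDGFL3 is a shorter relative best known from neurons. Quisinostat inhibits the enzymes that remove acetyl groups from histones, which changes the transcription of many genes at the same time.

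The coding stretches around the PWWP motif are shown because they define the family and show how alike the members are. They were taken from the reference protein-coding transcripts of GENCODE 29 (GRCh38), not from the libraries. Each runs 5′ to 3′ over 72 bases with the 4 codons at the place of the motif in capitals. In every member these codons read proline-histidine-tryptophan-proline, with histidine in place of the first tryptophan of the name.
HDGF: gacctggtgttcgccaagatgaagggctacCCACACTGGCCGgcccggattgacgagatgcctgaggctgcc
HDGFL2: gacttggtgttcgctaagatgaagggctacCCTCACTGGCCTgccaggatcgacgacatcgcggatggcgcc
HDGFL3: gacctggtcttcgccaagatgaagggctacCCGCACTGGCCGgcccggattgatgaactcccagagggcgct
PSIP1: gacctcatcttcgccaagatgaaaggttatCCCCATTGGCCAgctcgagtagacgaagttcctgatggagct
The HDGF stretch lies in coding exons 1 and 2 of its gene, on the minus strand at chr1:156745350-156751390 with the intron between them, inside the gene at chr1:156742107-156766925. HDGFL2 was placed on the plus strand at chr19:4472287-4502211, with its stretch spanning chr19:4472375-4475298 over exons 1 and 2. HDGFL3 was placed on the minus strand at chr15:83112738-83208018, with its stretch spanning chr15:83164052-83207378 over exons 1 and 2. PSIP1 was placed on the minus strand at chr9:15464066-15511019, with its stretch spanning chr9:15506614-15510164 over exons 2 and 3.

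Compared with HDGF, the 72-base stretch of HDGFL3 was identical at 62 bases, that of HDGFL2 at 59 and that of PSIP1 at 52. Translated over 90 residues around the motif, HDGF shared 75 residues with HDGFL3, 67 with PSIP1 and 65 with HDGFL2, and 60 residues were the same in all 4. The members differ more in length, with 240 residues encoded by the reference transcript of HDGF, 203 by HDGFL3, 530 by PSIP1 and 671 by HDGFL2. No run of 50 bases was shared between the transcripts of different members, so a read of that length assigned to 1 member could not have come equally well from another. Runs of 50 bases shared with other genes made up 0.21% of those of HDGF, 0.386% of those of HDGFL3, 4.61% of those of PSIP1 and 0% of those of HDGFL2. These shares cover 1 reference transcript per member, read in the sense direction only. Overlaps with genes on the other strand are therefore not in them.

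The values are FPKM, fragments per kilobase of transcript scaled to the mapped fragments of the library, so levels of different genes are given per length. Read depth is unknown, and no counting error can be given for a value. Over the 6 libraries the median locus had between 6.59 and 7.39 FPKM, and 213 to 534 of the 10066 loci were listed at 0. All 12 urothelial and epithelial markers had a row, and their summed level went from 1754 FPKM with DMSO to 888 FPKM with quisinostat in RT4, from 1001 to 1450 FPKM in RT112 and from 1579 to 987 FPKM in SW780. The sum thus moved with the treatment in the direction of HDGF in RT4 and SW780 and against it in RT112, and its part in the values of HDGF was not tested. With DMSO the keratins KRT7, KRT8, KRT18 and KRT19 had the highest levels of the 12 in every line, and so weigh most in the sum. Not every marker followed it. EPCAM went from 62.4 to 94.6 FPKM in RT4 and from 53.3 to 66.6 FPKM in SW780. CDH1 went from 114.0 to 142.3 FPKM in RT4 and from 58.0 to 72.2 FPKM in SW780. Of the 10 stromal and immune markers only COL1A1 and COL3A1 had one, with 0.263 to 6.66 FPKM summed. Quisinostat over DMSO is given as a plain log2 ratio of FPKM within a line. Over the 9112 loci with a value above 0 in every library the median of this ratio came to 0.08 for RT4, 0.06 for RT112 and 0.04 for SW780. Of the 11 urothelial and epithelial markers among them, 7 were below -0.3 and 2 above 0.3 in RT4, beside 33.5% and 40.3% of loci. In RT112 it was 2 and 6, beside 25.2% and 36%, and in SW780 7 and 3, beside 28.2% and 32.8%. The ratios of all loci also moved with the GC content of the transcript, and not in the same direction in every line. Across 8407 loci Spearman's rho came to -0.487 for RT4, 0.439 for RT112 and -0.217 for SW780, as a description of genes that are not independent replicates. Each member's ratio is therefore also given after removing that trend with a lowess curve.

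HDGF, the founding member, was lower with quisinostat in each of the 3 lines. It was 103.7 FPKM with DMSO and 58.6 FPKM with quisinostat in RT4, 200.4 and 140 FPKM in RT112, and 172.8 and 90.1 FPKM in SW780. The level left with quisinostat was 56.5% of that with DMSO in RT4, 69.9% in RT112 and 52.2% in SW780. In bulk RNA, less HDGF RNA per cell and a larger share of RNA from other genes cannot be told apart. The DMSO and quisinostat levels overlapped between lines, since RT112 cells with quisinostat still had more HDGF than RT4 cells with DMSO. Within each line the quisinostat library was the lower of the pair.

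On the log2 scale HDGF had ratios of -0.82 for RT4, -0.52 for RT112 and -0.94 for SW780, a mean of -0.76 ± 0.22 (SD, n = 3 lines). Of all 9112 loci, 17.4% had a lower ratio than HDGF in RT4, 13.0% in RT112 and 8.11% in SW780. Among all loci of the table HDGF ranked 335 by level in RT4 with DMSO and 674 with quisinostat. In RT112 it ranked 137 and 206, and in SW780 165 and 370. HDGF thus stayed among the abundantly expressed genes in every library.

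HDGF transcripts have a GC content of 56.1%, and the GC trend bears on how its 3 ratios compare with each other. After the correction the ratios came to -0.37 for RT4, -0.75 for RT112 and -0.82 for SW780. All 3 stayed below -0.3, but RT4 went from the middle to the weakest value, and its corrected value lay close to the limit. Among 517 loci within 1 percentage point of the GC content of HDGF, the median ratio came to -0.36 for RT4, 0.29 for RT112 and -0.07 for SW780. Of these loci 30.4% had a lower ratio than HDGF in RT4, against 6.19% in RT112 and 9.86% in SW780.

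**Figure D1:**
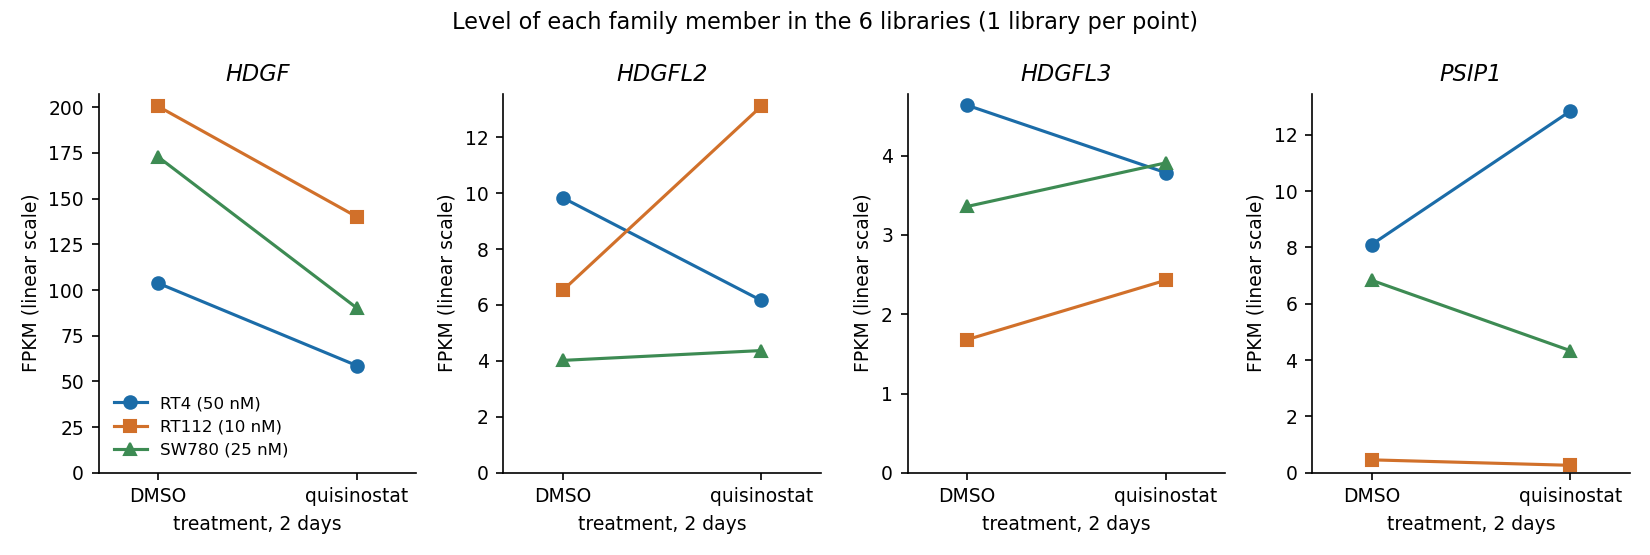
FPKM (linear axis from 0, scaled separately in each panel) of HDGF, HDGFL2, HDGFL3 and PSIP1 with DMSO and with quisinostat, 1 point per library and 1 line and colour per cell line. HDGF slopes down in RT4, RT112 and SW780 alike, whereas each of the other 3 panels holds lines of both slopes, and HDGFL2 in RT4 is lower before but higher after a correction for GC content.

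HDGFL2, which reads methylated H3K36 and carries the integrase-binding domain, did not move one way. It was 9.83 FPKM with DMSO and 6.16 FPKM with quisinostat in RT4, 6.52 and 13.1 FPKM in RT112, and 4.02 and 4.37 FPKM in SW780. Quisinostat was thus the lower library in RT4 and the higher one in RT112, with little difference in SW780. The log2 ratios were -0.67, 1.01 and 0.12, a mean of 0.15 ± 0.84 (SD, n = 3 lines). Its transcripts have the highest GC content of the family, 63.3%, and its plain ratios had the direction of the GC trend in RT4 and RT112 but not in SW780. After the correction they came to 0.52 for RT4, 0.22 for RT112 and 0.49 for SW780, so that the direction in RT4 turned and all 3 values were above 0. Among the 310 loci of like GC content the median plain ratio came to -1.20 for RT4, 0.84 for RT112 and -0.32 for SW780. Whether GC-dependent recovery of fragments accounts for the plain values was not tested.

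HDGFL3, the shortest member by protein, was the least expressed relative in RT4 and SW780. It was 4.64 FPKM with DMSO and 3.79 FPKM with quisinostat in RT4, 1.68 and 2.43 FPKM in RT112, and 3.36 and 3.91 FPKM in SW780. The 2 treatments overlapped across lines, and the quisinostat library was lower only in RT4. The log2 ratios were -0.29, 0.53 and 0.22, a mean of 0.15 ± 0.42 (SD, n = 3 lines), with the RT4 value just inside the limit of -0.3. After the GC correction they were -0.65, 0.75 and 0.12 in the same order of lines. The gene whose PWWP sequence is closest to that of HDGF therefore had the opposite direction to HDGF in RT112 and SW780, on both scales.

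PSIP1, the LEDGF gene, differed more between the lines than with the treatment. It was 8.10 FPKM with DMSO and 12.8 FPKM with quisinostat in RT4, and 6.84 and 4.34 FPKM in SW780. In RT112 cells it was only 0.461 FPKM with DMSO and 0.267 FPKM with quisinostat. RT112 was below both other lines in either treatment without overlap. The log2 ratios came to 0.66 for RT4, -0.79 for RT112 and -0.66 for SW780, a mean of -0.26 ± 0.80 (SD, n = 3 lines), and 0.28, -0.57 and -0.76 after the GC correction. The RT112 ratio rests on a difference of 0.194 FPKM between 2 low values of unknown depth.

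**Figure D2:**
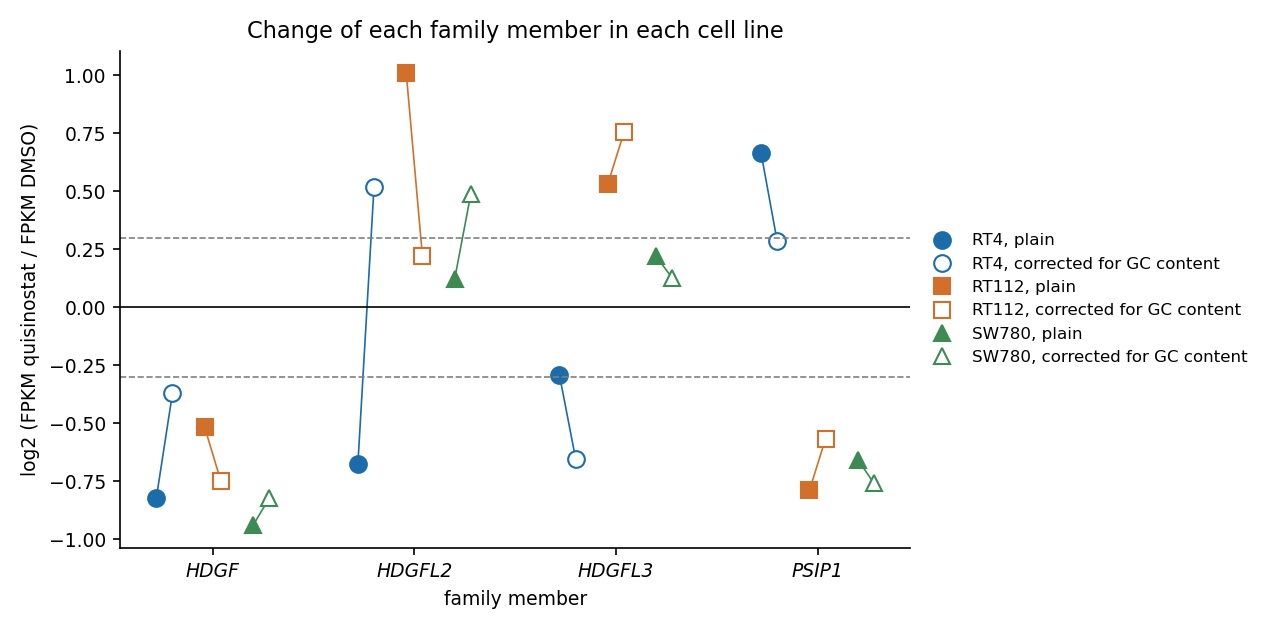
Log2 ratio of FPKM with quisinostat over DMSO for each member in RT4, RT112 and SW780, as the plain ratio (filled) and after correction for GC content (open, joined to its plain value). Dashed lines mark -0.3 and 0.3; the 6 HDGF values lie between -0.94 and -0.37, and HDGFL2 in RT4 crosses from -0.67 to 0.52.

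The fall-side limit of the study, a log2 ratio below -0.3, was then counted over the family. In RT4, 2 of the 4 members were below -0.3 (HDGF and HDGFL2), beside 33.5% of all loci, and 1 was above 0.3 (PSIP1), beside 40.3%. In RT112, 2 were below (HDGF and PSIP1), beside 25.2% of all loci, and 2 were above (HDGFL2 and HDGFL3), beside 36%. In SW780, 2 were below (HDGF and PSIP1), beside 28.2% of all loci, and none was above, beside 32.8%. HDGF was the only member below -0.3 in all 3 lines, as were 4.99% of all loci. No member was above 0.3 in all 3 lines, where 11.4% of loci were. At a limit of -0.5 HDGF still passed in all 3 lines, beside 1.89% of loci. With the GC correction HDGF was again the only member below -0.3 in all 3 lines, beside 5.85% of loci, and no member was above 0.3 in all 3, beside 13.1%.

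**Figure D3:**
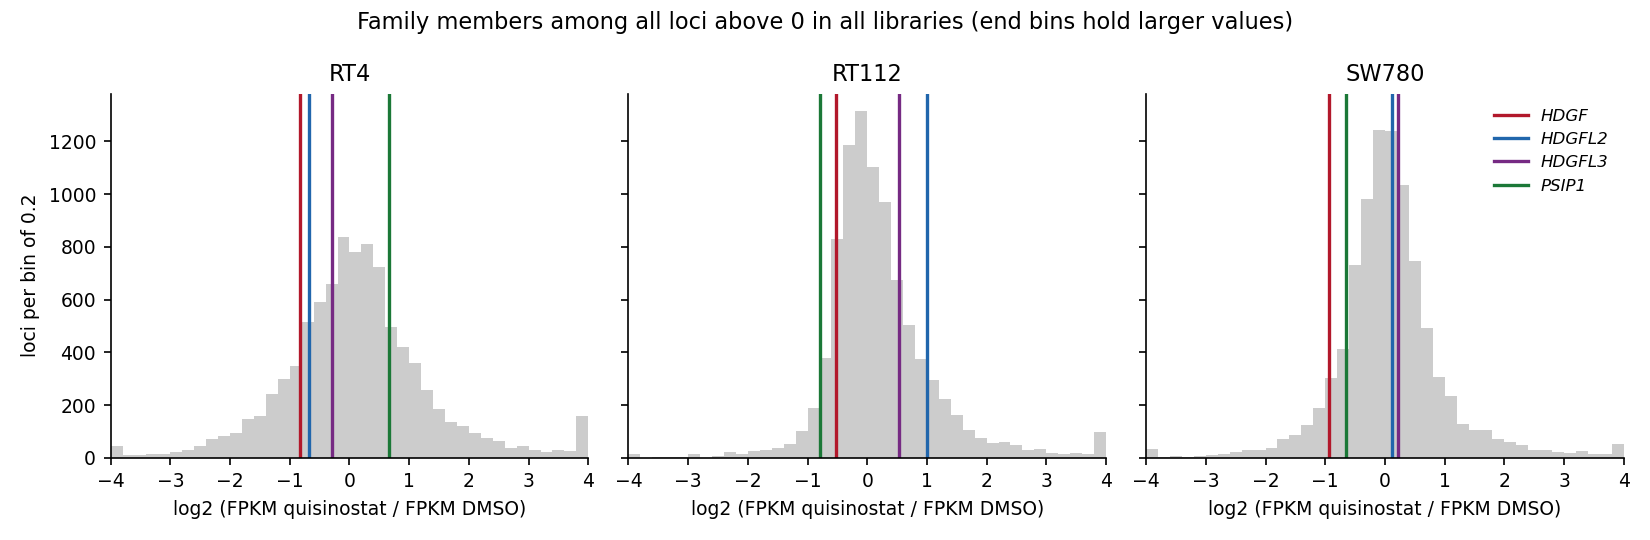
Histograms of the log2 ratio of quisinostat over DMSO (x axis, bins of 0.2) for the 9112 loci above 0 in all libraries (y axis, loci per bin), with vertical lines at the 4 members, 1 panel per cell line. HDGF lies on the lower side of each histogram at -0.82, -0.52 and -0.94, while the relatives change sides between panels. After the correction for GC content, which is not drawn here, HDGFL2 is above 0 in all 3 lines.

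Whether HDGF differed from its relatives was compared within lines. The log2 ratio of HDGF was below that of HDGFL2 in 3 of 3 lines, by a mean difference of -0.91 ± 0.70 (SD, n = 3), and the exact two-sided sign-flip permutation test gave p = 0.25 (0.375 adjusted over the 3 relatives). It was below that of HDGFL3 in 3 of 3 lines, by -0.91 ± 0.34 (SD, n = 3; exact p = 0.25, adjusted 0.375). After the GC correction HDGF was above HDGFL3 in RT4, by 0.28, and below it in 2 of 3 lines (exact permutation p = 0.50). It was below that of PSIP1 in 2 of 3 lines, by -0.50 ± 0.90 (SD, n = 3; exact p = 0.50, adjusted 0.50). This mean difference was -0.0057 without RT4 and -0.88 without RT112. With the GC correction HDGF was below PSIP1 in 3 of 3 lines, by a mean of -0.30 (exact permutation p = 0.25), as it also was in 3 of 3 lines with a pseudocount of 1 FPKM. The mean difference from HDGFL2 was -0.60 without RT112. With 3 lines this test cannot give a p below 0.25, so the design could not show a difference at 0.05. HDGF had also been picked from these same libraries for being lower in all 3 lines. Of all loci, 82.6% had a higher ratio than HDGF in RT4, 87.0% in RT112 and 91.9% in SW780. Most other genes would thus also lie above HDGF, and the tallies of lines are no independent evidence.

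Across the lines, limma on log2(FPKM + 1) with cell line as a block gave a log2 fold change of -0.75 for HDGF (SE 0.17, adjusted p = 0.257). HDGF was lower in 3 of 3 lines, but this did not pass the threshold of 0.05, and since HDGF had been picked from these same libraries the value is no independent evidence. The limma estimates of the relatives were 0.14 for HDGFL2 (SE 0.33, adjusted p = 0.877), 0.10 for HDGFL3 (SE 0.26, adjusted p = 0.891) and -0.05 for PSIP1 (SE 0.31, adjusted p = 0.950). Of the 9430 loci tested by limma, 0% passed at an adjusted p under 0.05, while 392 were lower and 913 higher at an unadjusted p under 0.05. The replicates are cell lines at different doses, so these p-values measure the spread between lines and not between cultures.

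The mix of family members also differed between libraries, because HDGF made up most of the family's expression. HDGF was 82.1% of the summed FPKM of the 4 genes in RT4 with DMSO and 72.0% with quisinostat. In RT112 its share was 95.9% with DMSO and 89.9% with quisinostat, and in SW780 92.4% and 87.7%. Its share was lower in the quisinostat library of each line. The ratio of HDGF to its 3 relatives together went from 4.60 to 2.57 in RT4, from 23.1 to 8.86 in RT112 and from 12.2 to 7.14 in SW780. The summed relatives changed by log2 ratios of 0.01, 0.87 and -0.17 in the same lines, and the family as a whole by -0.63, -0.42 and -0.86.

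**Figure D4:**
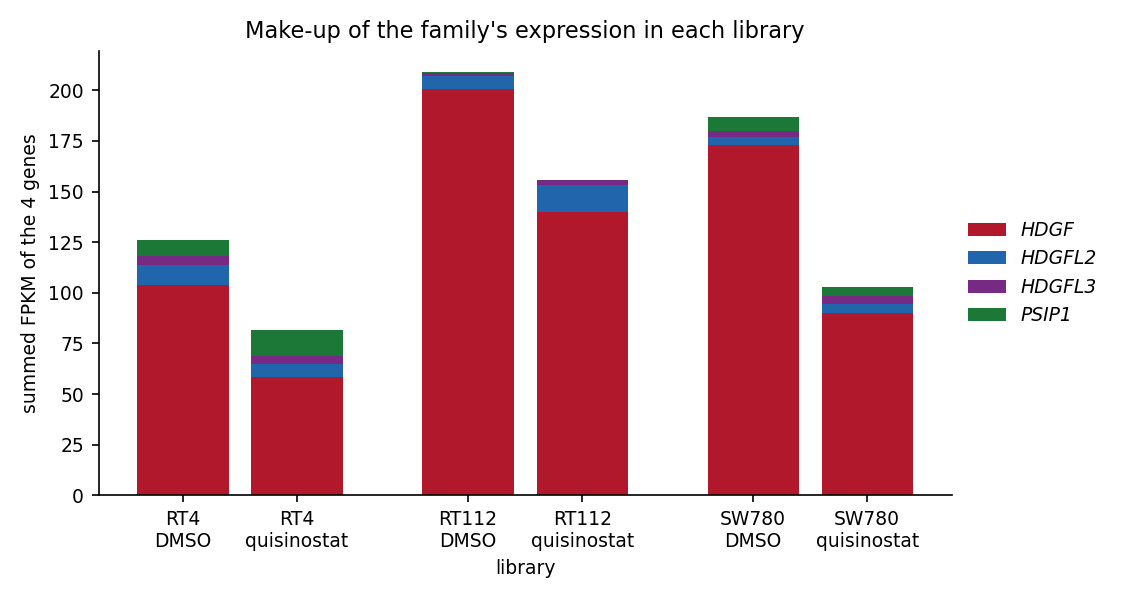
Summed FPKM of HDGF, HDGFL2, HDGFL3 and PSIP1 (y axis from 0) in each of the 6 libraries, stacked by gene. HDGF fills 72.0% to 95.9% of each bar, and within a line the quisinostat bar is the lower of the pair.

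Each member had its own order of levels across the lines. With DMSO, HDGF was highest in RT112, then SW780, then RT4, a 1.93-fold range, and the order was the same with quisinostat. HDGFL2 was highest in RT4 and lowest in SW780 with DMSO, a 2.45-fold range, while with quisinostat RT112 was highest. HDGFL3 was highest in RT4 and lowest in RT112 with DMSO, a 2.76-fold range, and with quisinostat SW780 and RT4 differed by only 1.03-fold. With 1 library a group, none of these orders could be set against a spread between replicates.

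PSIP1 had the widest range of the 4, 17.6-fold between RT4 and RT112 with DMSO and 48.1-fold with quisinostat. Over 8898 loci the median range between the lines with DMSO was 1.94-fold, and 95.3% of loci had a smaller range than PSIP1. SNAPC3, which encodes a subunit of the complex that starts small nuclear RNA transcription and overlaps the 3′ end of PSIP1 on the other strand, did not share the low level. It was 5.06 FPKM in RT112 with DMSO, above 3.48 FPKM in RT4 and 1.83 FPKM in SW780. Its log2 ratios of 0.88, -0.65 and -0.03 had the direction of those of PSIP1 in each line, though near 0 in SW780. PLIN2, a lipid droplet protein gene 3597 kb from PSIP1 and named after its values were seen, was 0.0207 FPKM in RT112 with DMSO and 60.2 FPKM in RT4. Of the 6 neighbours of PSIP1 looked up below, RT112 was the lowest line with DMSO for 1, PLIN2 itself. Only loci above 0 in all 6 libraries were looked up, so a gene at 0 in RT112 could not be among them. RRAGA and HAUS6, which lie between PSIP1 and PLIN2, were highest in RT112 with DMSO, at 57.3 and 13.5 FPKM. With DMSO they were at 35.0 and 5.61 FPKM in RT4 and at 25.2 and 3.72 FPKM in SW780. The libraries keep strand, but whether the quantification used it is not given in the sources used here.

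Overlapping genes matter for the other members too. PRCC, on the plus strand, overlaps HDGF in the annotation and was at log2 ratios of -0.27, 0.28 and -0.05 in RT4, RT112 and SW780. PLIN4 overlaps HDGFL2, and TM6SF1 overlaps HDGFL3 on the other strand. To set each member beside its neighbours on the chromosome, the 3 nearest loci on either side that passed a filter were looked up. This step was chosen after the members' values had been seen. The filter kept loci with a single gene name, a value above 0 in every library and a mean of at least 1 FPKM. Genes that lie nearer but failed it were left out. Such loci lay up to 173 kb from HDGFL2 but up to 2233 kb from HDGF, 1447 kb from HDGFL3 and 3597 kb from PSIP1. Around HDGF (ISG20L2, RRNAD1, MRPL24, PRCC, ETV3 and IFI16) 0 of 6 loci were below -0.3 in all 3 lines, which is near the 4.99% of all loci, and their median ratios were -0.15, -0.04 and -0.00.

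MRPL24, a mitochondrial ribosomal protein gene 0.517 kb from HDGF, had ratios of -0.43, -0.23 and -0.28. Around HDGFL2 the 6 neighbours had medians of -1.23, 0.35 and -0.34, so that HDGFL2 lay above the median of its neighbours in each line. Around PSIP1 the medians were 0.57, -0.50 and 0.08. PSIP1 and its neighbours thus had the same direction in RT4 and RT112 but not in SW780. Around HDGFL3 they were 0.72, 0.34 and 0.38, above HDGFL3 itself in RT4 and SW780.

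The genes whose levels over the 6 libraries were most like those of HDGF were NUCKS1, MTCO2P2, NUDT21, CENPK and PPIAP22, with Pearson's r of log2(FPKM + 1) between 0.986 and 0.991 among 8393 loci. These points share 3 cell lines and their libraries. By distance between the 3 log2 ratios the nearest were PPIAP22, NUP210, ANP32B, NUCKS1 and SRRM1, at 0.056 to 0.172. NUCKS1, which encodes a DNA-binding nuclear phosphoprotein, was at -0.85, -0.65 and -0.94, and ANP32B, a histone-binding chaperone, at -0.78, -0.56 and -1.02. NUDT21 encodes a subunit of the cleavage factor that sets poly(A) sites, CENPK a kinetochore protein and SRRM1 a splicing coactivator, whereas MTCO2P2 and PPIAP22 are pseudogenes whose reads can come from their parent sequences.

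None of the other members was among the genes most like HDGF. The correlation with HDGF over the 6 libraries was 0.03 for HDGFL2, -0.69 for HDGFL3 and -0.67 for PSIP1, while HDGFL3 and PSIP1 had 0.86 with each other. HDGFL2 was most like CCDC124, EPHB4, TICAM1, YEATS2 and MVB12A (r from 0.990 to 0.995). Among the genes most like HDGFL3 were FRMD6, MFSD5, TRAF3 and PART1 (0.978 to 0.986), and PSIP1 most like TRPM7, AC012501.2, MBP, NSF and CYP51A1 (0.990 to 0.995).

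Beyond the family, 19 other genes of proteins with a PWWP domain were looked up, and 10 had a row. Of the 9 above 0 in every library, 2 were below -0.3 in all 3 lines and 0 were above 0.3 in all 3, beside 4.99% and 11.4% of all loci, and the medians came to -0.58 for RT4, -0.27 for RT112 and -0.59 for SW780. NSD2, the H3K36 dimethyltransferase with PWWP domains, was 13.6 FPKM with DMSO and 6.70 FPKM with quisinostat in RT4, 25.4 and 12.4 FPKM in RT112, and 15.3 and 8.21 FPKM in SW780. Its log2 ratios of -1.02, -1.03 and -0.89 were lower than those of HDGF in RT4 and RT112, and they hardly moved with the GC correction (-0.96, -1.002 and -0.89). Its limma fold change was -0.91 (SE 0.19, adjusted p = 0.245). The locus also carries the name of the small RNA gene SCARNA22.

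MSH6, the mismatch repair protein whose PWWP domain reads H3K36 trimethylation, was at -0.40, -0.32 and -0.59, and at -0.77, -0.10 and -0.69 after the GC correction, so its RT112 value left the limit. BRD1 and BRPF3, scaffolds of histone acetyltransferase complexes, were the lowest and the highest of the remaining loci by mean ratio. BRD1 was at -1.05, 1.37 and -1.75 in RT4, RT112 and SW780, and BRPF3 at -1.47, 2.77 and -0.31. PWWP3B, listed under its older name MUM1L1, was at 0 with DMSO in RT4 and RT112 and at 2.68 and 0.509 FPKM with quisinostat, and in SW780 it was 1.12 and 3.79 FPKM.

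**Figure D5:**
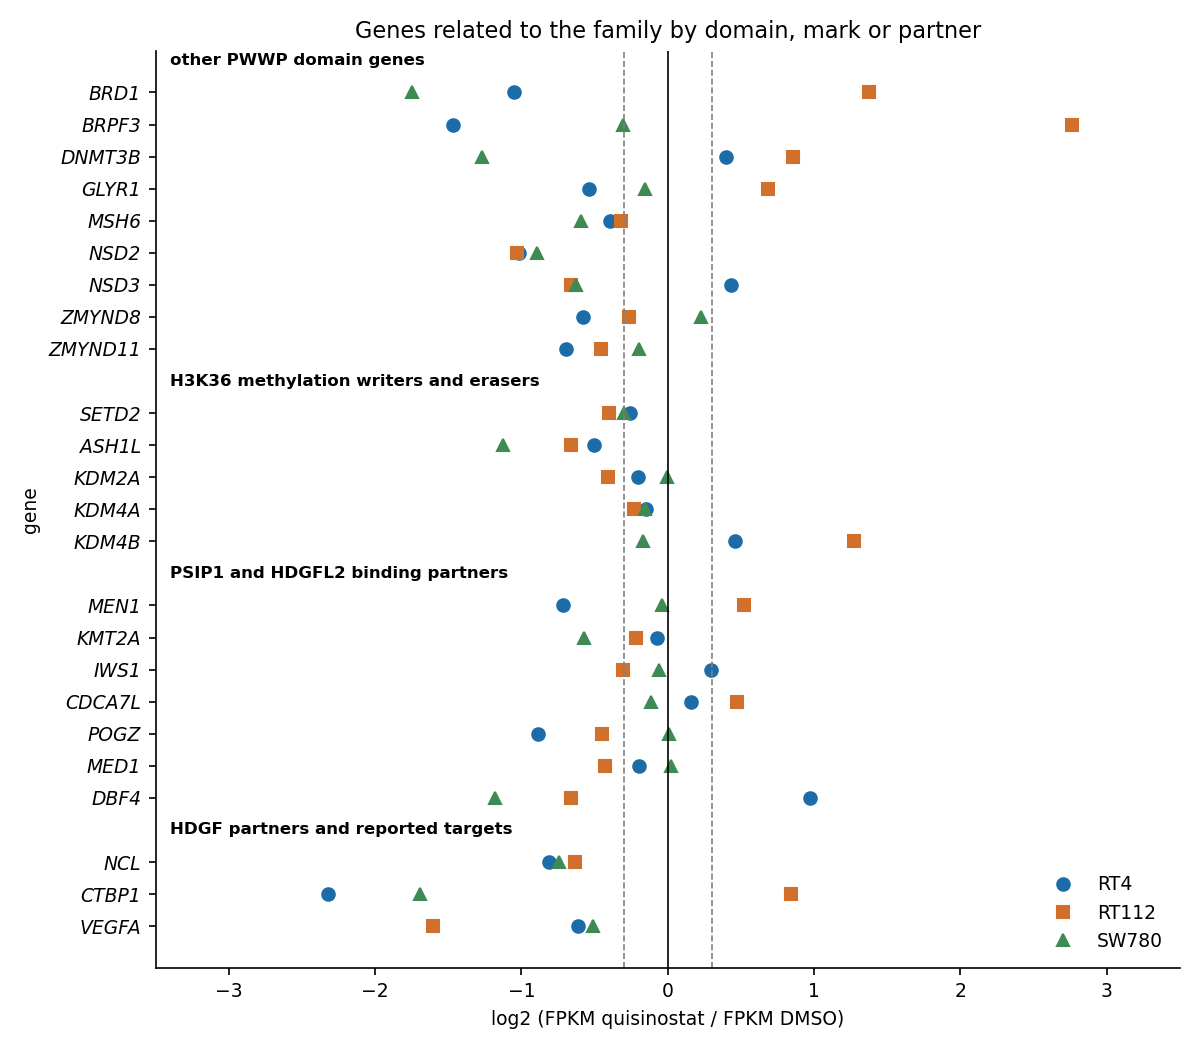
Log2 ratio of quisinostat over DMSO (x axis) in RT4, RT112 and SW780 for genes with a PWWP domain, genes that write or erase H3K36 methylation, partners of PSIP1 and HDGFL2, and partners and reported targets of HDGF (y axis), leaving out genes at 0 in any library. Dashed lines mark -0.3 and 0.3; NSD2, MSH6, ASH1L, NCL and VEGFA have all 3 points left of -0.3, MSH6 not after the correction for GC content.

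Of 10 genes that write or erase methylation of H3K36, 7 had a row, and 2 were below -0.3 in all 3 lines with 0 above 0.3 in all 3, beside the same 4.99% and 11.4% of all loci. Besides NSD2 this was ASH1L, another H3K36 methyltransferase, with ratios of -0.50, -0.66 and -1.13 (limma -0.67, SE 0.22, adjusted p = 0.319) at a locus that also carries the name YY1AP1. SETD2, which writes most H3K36 trimethylation, had the lowest mean ratio of the remaining genes, at -0.26, -0.40 and -0.30. Among these KDM4B, a demethylase, had the highest mean ratio, with 0.46, 1.27 and -0.17. The medians of the 7 loci were -0.20, -0.41 and -0.30.

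All 7 partners of PSIP1 and HDGFL2 that were looked up had a row, and 0 were below -0.3 or above 0.3 in all 3 lines, where 4.99% and 11.4% of all loci were, so that 0 of 7 is near the background. POGZ, a zinc finger protein bound by the integrase-binding domain, had the lowest mean ratio of the 7, at -0.88, -0.45 and 0.01. CDCA7L, a MYC-interacting protein, had the highest, at 0.16, 0.47 and -0.11. MEN1, which encodes menin and joins LEDGF to the KMT2A methyltransferase, was at -0.71, 0.52 and -0.04, and KMT2A at -0.07, -0.22 and -0.57. After the GC correction POGZ was at -0.97, -0.36 and -0.035, and MEN1 at 0.016, 0.093 and 0.18, so that the direction of MEN1 turned in RT4 and SW780.

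The 3 partners and reported targets of HDGF were described in the same way. NCL, the nucleolar protein nucleolin that binds HDGF at the cell surface, was 167.5 FPKM with DMSO and 95.5 FPKM with quisinostat in RT4, 186.5 and 120.3 FPKM in RT112, and 175.9 and 105.1 FPKM in SW780. Its plain ratios of -0.81, -0.63 and -0.74 lay within 0.2 of those of HDGF (limma -0.72, SE 0.16, adjusted p = 0.257). They were less alike after the GC correction, at -0.95, -0.52 and -0.79 for NCL against -0.37, -0.75 and -0.82 for HDGF. VEGFA, an angiogenic growth factor, was at -0.61, -1.60 and -0.51 (limma -0.82, SE 0.27, adjusted p = 0.322). CTBP1, a corepressor, was at -2.32, 0.85 and -1.69, with its RT112 value on the other side. None of the genes in these lists passed in limma.

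As a check of the treatment, genes known to respond to HDAC inhibitors were read in the same libraries. GSN, the actin-severing protein gelsolin, was above 0.3 in all 3 lines, as were 11.4% of all loci. Its ratios were 0.93, 2.79 and 1.502, although its SW780 levels were only 0.13 and 0.367 FPKM. CDKN1A, the p21 cell cycle inhibitor, was at 0.12, 1.36 and 0.52. CLU, which encodes the chaperone clusterin, was at 0.09, 2.62 and -0.32. TUBB3, at a locus shared with TCF25, was at -1.90, 0.54 and -0.61. After the GC correction GSN was at 1.39, 2.55 and 1.62 and CDKN1A at 0.76, 0.996 and 0.70. CDKN1A was then above 0.3 in all 3 lines too, beside 13.1% of loci. With the same correction CLU was at 0.20, 2.63 and -0.30, and TUBB3 at -1.05, 0.013 and -0.36.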

How the data were processed

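RNA was sequenced from RT4, RT112 and SW780 cells after 2 days with DMSO or quisinostat, 6 libraries in 6 groups of 1. Groups were taken from the sample titles, because 1 other label of the SW780 quisinostat library names the line as SW781. The authors deposited FPKM per gene, made from stranded poly(A) libraries with HISAT2, StringTie and Ballgown. The submitters' processing notes also name CASAVA 1.8.2, Trimmomatic 0.36, HISAT2 2.2.1, SAMtools 1.15.1, StringTie 2.2.1 and GRCh38, without an annotation release. Read counts were not used here, so depth is unknown, and no interval or detection limit was computed.

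Rows (10515) were reduced to 1 value per assembled locus (10066). Log2 ratios had no pseudocount. Limma 3.58.1 (R 4.3.3) took log2(FPKM + 1) of the 9430 loci whose mean was 1 FPKM or more. This scale understates changes of low genes. The model held the cell line as a block and used a mean-variance trend, and p-values were adjusted by Benjamini-Hochberg. The 2 libraries of a line are paired because they come from the same line, and the correlation of their deviations from the treatment means was 0.598, 0.500 and 0.726 in RT4, RT112 and SW780. GC content came from the longest coding transcript in GENCODE 29 and was found for 92.3% of 9112 loci. The trend was a lowess curve of span 0.3 in each line, with the median put back. Python 3.11.15 was used, and limma and the GC step were tested on simulated data.

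The members and gene lists were chosen with earlier results of these data known. Named were all members, list genes past 0.3 in either direction in all 3 lines, the lowest and highest mean ratio of each list, the 5 loci most like each member, and 5 HDAC inhibitor response genes, of which some results are not reported here. Other genes were named after their values were seen.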

Additional observations from a re-analysis of the deposited data

Results flagged for a closer look

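By their plain ratios, the 3 relatives of HDGF moved in opposite directions in different lines. With 1 library a group, these differences between lines were not tested. The log2 ratio of HDGFL2 came to -0.67 for RT4, 1.01 for RT112 and 0.12 for SW780, and the RT4 value turned to 0.52 with the GC correction. HDGFL3 had -0.29 for RT4, 0.53 for RT112 and 0.22 for SW780. PSIP1 had 0.66 for RT4, -0.79 for RT112 and -0.66 for SW780.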

How the results depend on the processing

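HDGF was below -0.3 in each line under all 6 alternatives to its plain ratio (pseudocounts of 0.01, 0.1 and 1 FPKM, 2 other scalings and the GC correction), from -0.98 to -0.37. The GC correction moved it to -0.37 in RT4 and -0.75 in RT112, and turned HDGFL2 in RT4 to 0.52. At a limit of -1, 0 members were below in all 3 lines. The count of other PWWP genes below in all 3 lines was 1 with a pseudocount of 1 FPKM and 1 with the GC correction. In limma, 0 loci passed except after GC correction of the libraries, where 9 did, all higher, and HDGF had an adjusted p of 0.127. Leaving out each line in turn gave limma estimates for HDGFL2 of -0.25 (without RT112) to 0.50 and for HDGFL3 of -0.032 (without RT112) to 0.26. For PSIP1 they were -0.38 without RT4, 0.025 without RT112 and 0.20 without SW780. Leaving out 1 line could thus turn the direction of each relative, for PSIP1 either RT112 or SW780, while HDGF stayed between -0.87 and -0.66. Quantile normalization gave -0.076 for HDGFL3 and 570 lower against 638 higher loci at an unadjusted p under 0.05. Without the replicate block of cell line, the limma estimate of HDGF was unchanged at -0.75, its adjusted p was 0.973, and 0 loci passed, so the pairing changed no call. The causes of these shifts were not tested. Without counts or replicates, the low PSIP1 values in RT112 have no known precision.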
